A study of Homo sapiens with 12 samples.

Results

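The genes described here are 37 neighbours on the short arm of chromosome 17, band 17p11.2, followed in the MCF10 series, 4 cell lines of human breast epithelium. They are 37 of the 59427 gene symbols in the deposited expression table, and were chosen by these same TPM values, because earlier results showed the stretch raised in the lines derived from MCF10A. That rise is given below as a description. In the GENCODE release 29 annotation of GRCh38 the stretch runs from FLCN to MAP2K3, chr17:17212212-21315240, a length of 4.10 Mb. Of the 37 genes, 30 reached 1 TPM (transcripts scaled to a common total of 1000000) in at least 1 line and entered the comparisons, among 13108 genes that did so. The label of a raised segment held for only part of the stretch. Raised genes lay mostly between NT5M and ALDH3A2, while FLCN and COPS3 at one end and nearly all genes from ULK2 onwards at the other were not raised.

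Band 17p11.2 is gene-dense and flanked by repeats that misalign in meiosis. Its deletion causes Smith-Magenis syndrome and its duplication Potocki-Lupski syndrome, and RAI1 is the gene most closely tied to both. The genes share position rather than function: they encode lipid and nucleotide enzymes, mitochondrial proteins, kinases, polarity and trafficking proteins, and components of transcription complexes.

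MCF10AT1 is the line transformed with HRAS G12V, MCF10DCIS is a model of ductal carcinoma in situ, MCF10CA1a is a metastatic line, and MCF10A is the non-tumorigenic line from which the other 3 descend. The labels give 3 libraries of total RNA per line, 12 in all, and the lines were grown alike, with EGF, insulin, cholera toxin, hydrocortisone and horse serum. The table holds the authors' mean TPM per line, so no value below has an error, the spread between libraries is not known for any difference, and the sequencing depth is unknown. Differences are log2(TPM + 1) of the derived line minus MCF10A, and a gene is called raised at a difference of at least 0.5 and lowered at one of at most -0.5. All 3 differences use the same MCF10A values, and each stage is represented by 1 line. The 3 derived lines are all HRAS-derived. A rise in all of them cannot be read as 3 independent occurrences, because they share descent.

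HRAS stood at 50.8 TPM in MCF10A and 126 in MCF10AT1, with 276 in MCF10DCIS and 312 in MCF10CA1a. The epithelial markers EPCAM, CDH1, KRT5, KRT18 and TP63 summed to between 1179 and 1770 TPM per line. KRT5 and KRT18 made up most of that sum, and single markers moved in both directions. In MCF10A, MCF10AT1, MCF10DCIS and MCF10CA1a, CDH1 had 149, 21.3, 42.3 and 51.9 TPM and KRT5 had 768, 592, 643 and 126. In the same order TP63 had 0.901, 4.81, 6.22 and 10.7 TPM. EPCAM and KRT18 were highest in MCF10CA1a, at 148 and 977 TPM. The leukocyte markers PTPRC, CD3E and CD68 summed to between 2.87 and 6.41 TPM, nearly all of it CD68. The endothelial markers PECAM1, VWF and CDH5 summed to between 0.914 and 3.84 TPM, and the fibroblast markers COL1A1, COL1A2 and PDGFRB to between 0.807 and 3.41 TPM. PECAM1 made up nearly all of the endothelial sum, with 0.866 TPM in MCF10AT1, 2.05 in MCF10DCIS, 1.54 in MCF10CA1a and 3.79 in MCF10A. COL1A1 made up most of the fibroblast sum, with 3.22, 2.78 and 2.58 TPM in MCF10AT1, MCF10DCIS and MCF10CA1a and 0.674 in MCF10A. The other listed genes PTPRC, CD3E, VWF, CDH5 and COL1A2 were below 0.05 TPM in each line.

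Structural and small non-coding RNAs took 57.6% of the TPM in MCF10A and 60.0% in MCF10AT1, with 66.0% in MCF10DCIS and 59.8% in MCF10CA1a. The median of all 13108 genes stood at -0.07 in MCF10AT1 and -0.38 in MCF10DCIS, with -0.07 in MCF10CA1a. After these RNAs, ribosomal protein and mitochondrially encoded genes were left out and TPM was rescaled to 1000000, the medians were 0.04, -0.09 and 0.05. Several calls of members below differ between deposited and rescaled TPM, and a call with no scale named is on deposited TPM. Rescaling multiplies every level, so it also lessens the damping that the added 1 TPM puts on low genes.

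Promoter sequences are shown for 6 members: PEMT and ALDH3A2, which were raised in all 3 derived lines on both scales, and 2 head-to-head pairs, TOP3A with SMCR8 and B9D1 with MAPK7. Each is the RefSeq window on GRCh38.p14 from 250 bases before to 50 bases after the gene's start, read 5′ to 3′ on the gene's strand. Where RefSeq lists several windows for a gene, the one farthest upstream was taken. Capitals mark the GC box, GGGCGG on either strand. The windows are PEMT at chr17:17591659-17591958 (- strand), ALDH3A2 at chr17:19647886-19648185 (+ strand), TOP3A at chr17:18314945-18315244 (- strand), SMCR8 at chr17:18315043-18315342 (+ strand), B9D1 at chr17:19377864-19378163 (- strand) and MAPK7 at chr17:19377500-19377799 (+ strand).
PEMT: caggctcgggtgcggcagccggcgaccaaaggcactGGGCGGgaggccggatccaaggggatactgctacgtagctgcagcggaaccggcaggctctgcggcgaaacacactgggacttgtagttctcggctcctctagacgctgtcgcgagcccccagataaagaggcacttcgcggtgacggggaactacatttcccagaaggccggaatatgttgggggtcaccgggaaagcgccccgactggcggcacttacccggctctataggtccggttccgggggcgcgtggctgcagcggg
ALDH3A2: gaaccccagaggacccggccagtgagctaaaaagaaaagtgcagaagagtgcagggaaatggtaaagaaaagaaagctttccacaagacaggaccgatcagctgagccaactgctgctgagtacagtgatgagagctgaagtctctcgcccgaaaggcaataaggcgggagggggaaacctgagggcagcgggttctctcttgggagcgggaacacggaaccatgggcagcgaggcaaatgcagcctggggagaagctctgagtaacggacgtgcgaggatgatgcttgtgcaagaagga
TOP3A: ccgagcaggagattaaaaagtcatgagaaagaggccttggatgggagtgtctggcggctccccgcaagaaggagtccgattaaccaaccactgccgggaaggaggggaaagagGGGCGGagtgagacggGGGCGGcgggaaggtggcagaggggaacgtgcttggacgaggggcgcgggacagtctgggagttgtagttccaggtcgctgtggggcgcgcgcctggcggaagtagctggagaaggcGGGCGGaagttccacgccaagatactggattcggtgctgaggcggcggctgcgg
SMCR8: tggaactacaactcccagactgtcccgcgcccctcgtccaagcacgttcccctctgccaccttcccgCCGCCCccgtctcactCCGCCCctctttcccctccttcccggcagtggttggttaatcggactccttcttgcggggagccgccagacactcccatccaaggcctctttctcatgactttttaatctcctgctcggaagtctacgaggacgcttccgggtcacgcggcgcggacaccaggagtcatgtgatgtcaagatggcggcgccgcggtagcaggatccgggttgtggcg
B9D1: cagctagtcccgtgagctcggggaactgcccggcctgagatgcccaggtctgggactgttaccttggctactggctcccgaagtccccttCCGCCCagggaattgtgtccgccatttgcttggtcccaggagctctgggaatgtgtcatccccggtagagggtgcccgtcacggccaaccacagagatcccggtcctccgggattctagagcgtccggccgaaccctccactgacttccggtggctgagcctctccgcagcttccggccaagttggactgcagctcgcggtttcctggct
MAPK7: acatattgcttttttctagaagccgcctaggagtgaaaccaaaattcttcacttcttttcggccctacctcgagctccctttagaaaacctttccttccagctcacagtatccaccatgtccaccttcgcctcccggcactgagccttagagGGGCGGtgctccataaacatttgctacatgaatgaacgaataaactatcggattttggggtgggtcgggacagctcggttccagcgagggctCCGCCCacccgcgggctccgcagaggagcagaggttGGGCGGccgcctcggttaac

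The windows of TOP3A and SMCR8 share 202 bases, and those of B9D1 and MAPK7 share none. RefSeq windows were matched for 34 of the 37 members; MFAP4, RNF112 and SLC47A1 are named only. A GC box stood in 25 of the 34 windows (73.5%), against 44.5% of all 27284 promoters and 70.4% of the promoters of the genes compared. The CCAAT box (CCAAT, either strand) stood in 10 of 34 (29.4%), against 35.7% of all promoters and 37.6% of those of the genes compared. For the same 2 sets, TATAAA stood in 0 of 34, against 12.03% and 5.81%. The E-box CACGTG was found in 5 (14.7%), against 7.40% and 10.1%. The AP-1 motif TGANTCA was found in 3 (8.82%), against 7.72% and 4.56%, and the ETS motif CCGGAAGT in 2 (5.88%), against 4.41% and 9.26%. The ratio of observed to expected CpG had a median of 0.88 among the members, 0.58 among all promoters and 0.85 among promoters of the genes compared. The 34 windows include 5 of members below 1 TPM in every line. Among the 29 windows of members compared, the GC box stood in 23 (79.3%), CCAAT in 8 (27.6%) and TATAAA in 0. The E-box and the AP-1 motif each stood in 3 (10.3%) and the ETS motif in 2 (6.90%), and the median CpG ratio was 0.90. Promoters of the raised genes were not of a single kind: PEMT, TOP3A and SMCR8 hold GC boxes, and ALDH3A2 and PRPSAP2 hold none. These matches describe the letters of the windows and were not tied to any factor.

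In MCF10AT1, 15 of the 30 members were raised, where 9.76% of all genes were. In MCF10DCIS, 8 were raised (26.7%), where 8.6% of all genes were, and in MCF10CA1a 17 were raised (56.7%), where 15.3% of all genes were. The members' median differences were 0.46 in MCF10AT1 and 0.22 in MCF10DCIS, with 0.71 in MCF10CA1a. The lower count in MCF10DCIS depends on the scale. On rescaled TPM the counts were 17, 17 and 18 of 30 in MCF10AT1, MCF10DCIS and MCF10CA1a, where 15.3%, 18.9% and 22.4% of all genes were raised, and the medians were 0.59, 0.59 and 0.89. Lowered members numbered 1, 7 and 0 in the same order of lines as deposited, where 18.7%, 41.3% and 21.1% of all genes were lowered, and 0, 1 and 0 on rescaled TPM. At the larger threshold of 1, 9, 4 and 9 members were raised in MCF10AT1, MCF10DCIS and MCF10CA1a, where 3.39%, 3.56% and 5.97% of all genes were. On rescaled TPM this was 14, 7 and 12 members, where 5.84%, 7.84% and 9.46% of all genes were. In bulk RNA, fewer cells with a gene on and less RNA of it per cell cannot be told apart.

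**Figure D1:**
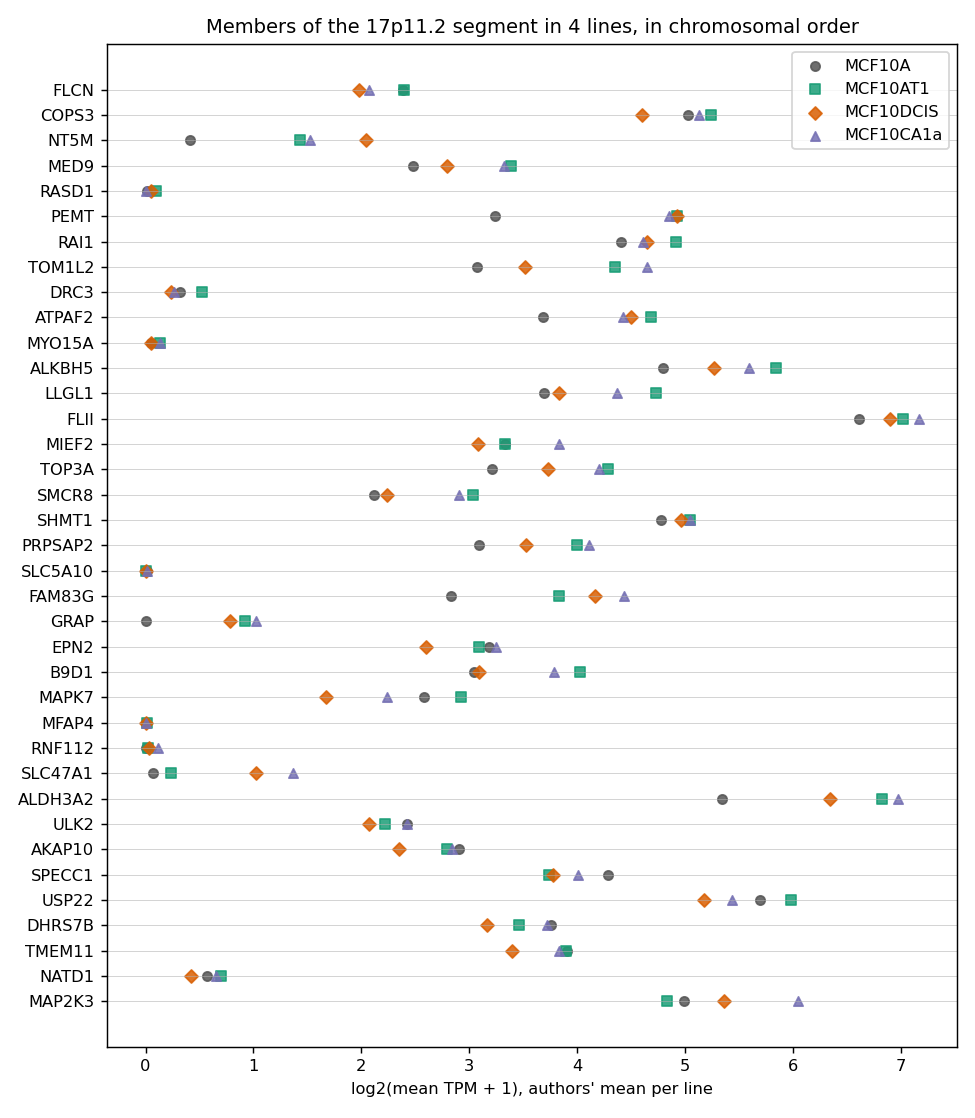
Authors' mean TPM of the 37 members, as log2(TPM + 1) on the horizontal axis, with 1 marker per line and the genes in chromosomal order from FLCN at the top to MAP2K3 at the bottom. MCF10A was the lowest line for 18 of the 30 members compared, among them PEMT and ALDH3A2. The members were chosen by these values, and the share of all genes lowest in MCF10A was not computed, so this count is a description.

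The genes raised in all 3 derived lines were NT5M, PEMT, ATPAF2, TOP3A, FAM83G, GRAP and ALDH3A2. These are 7 of 30, where 2.92% of all genes were raised in all 3. Of the 7, NT5M and GRAP reached 1 TPM only in derived lines, so they had to differ. Another 8 were raised in 2 lines: MED9, TOM1L2, ALKBH5, LLGL1, SMCR8, PRPSAP2, B9D1 and SLC47A1. Together these are 15 of 30 raised in at least 2 lines, where 9.19% of all genes were, and on rescaled TPM 18, where 17% of all genes were. Both counts include NT5M, GRAP and SLC47A1, and SLC47A1 likewise reached 1 TPM only in derived lines. RAI1, FLII and MAP2K3 were raised in 1 line each, and 12 members in none. On rescaled TPM 13 were raised in all 3 lines, with MED9, TOM1L2, ALKBH5, LLGL1, FLII and PRPSAP2 added to the 7, where 6.59% of all genes were. On that scale RAI1 (0.62) and MAP2K3 (0.75) also passed 0.5 in MCF10DCIS, which brought each to 2 lines. SHMT1 passed in MCF10DCIS (0.56), MIEF2 in MCF10CA1a (0.67) and MAPK7 in MCF10AT1 (0.50), and 9 members passed in none. Of the lowered calls on deposited TPM, only that of MAPK7 in MCF10DCIS held on rescaled TPM.

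By position the members fell into 3 stretches, whose bounds were drawn after the values were seen. From NT5M to ALDH3A2, 2.37 Mb with 27 members, 21 were compared, and 15 were raised in MCF10AT1, 8 in MCF10DCIS and 16 in MCF10CA1a, where 9.76%, 8.6% and 15.3% of all genes were. Of the 18 with at least 1 TPM in MCF10A, which leaves out NT5M, GRAP and SLC47A1, 13, 5 and 13 were raised. Of all 12045 genes at that level in MCF10A, 7.24%, 5.89% and 11.8% were raised in the same order. Since the bounds follow the values, these counts are a description. The medians of the 21 were 0.92, 0.43 and 0.80, and on rescaled TPM 1.17, 0.82 and 1.03. From ULK2 to MAP2K3, 1.54 Mb with 8 members, 7 were compared, and 0, 0 and 1 were raised, or 0, 1 and 1 on rescaled TPM. Their medians were -0.15, -0.51 and -0.06, or -0.03, -0.16 and 0.07 on rescaled TPM. At the other end lay FLCN and COPS3, raised in no line. ALDH3A2 was raised in every derived line, and ULK2, the next member along, in none.

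The summed level of the 27 members from NT5M to ALDH3A2 was 309 TPM in MCF10A and 564 in MCF10AT1, with 442 in MCF10DCIS and 575 in MCF10CA1a. On rescaled TPM these sums were 1.99, 1.85 and 2.06 times the MCF10A sum in MCF10AT1, MCF10DCIS and MCF10CA1a. The 8 members from ULK2 to MAP2K3 summed to 138, 137, 113 and 159 TPM in MCF10A, MCF10AT1, MCF10DCIS and MCF10CA1a. As deposited, the first stretch stood at 1.82, 1.43 and 1.86 times the MCF10A sum in MCF10AT1, MCF10DCIS and MCF10CA1a, and the second at 0.990, 0.821 and 1.16 times. On rescaled TPM the second stood at 1.08, 1.06 and 1.28 times. The first stretch was above MCF10A in all 3 derived lines on both scales, while the second was above it in MCF10CA1a alone as deposited and in all 3 lines on rescaled TPM. MAP2K3 was the only compared member of the second stretch raised in any line. It went from 89.8 rescaled TPM in MCF10A to 151 in MCF10DCIS and 211 in MCF10CA1a. The second stretch as a whole had median differences of only -0.03, -0.16 and 0.07 on that scale. Among the 18 members of the first stretch with at least 1 TPM in MCF10A, the median rescaled ratio to MCF10A was 2.30 in MCF10AT1 and 1.63 in MCF10DCIS, with 1.95 in MCF10CA1a. Single genes ranged from 0.569 to 4.49 times the MCF10A level over the 3 lines.

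**Figure D2:**
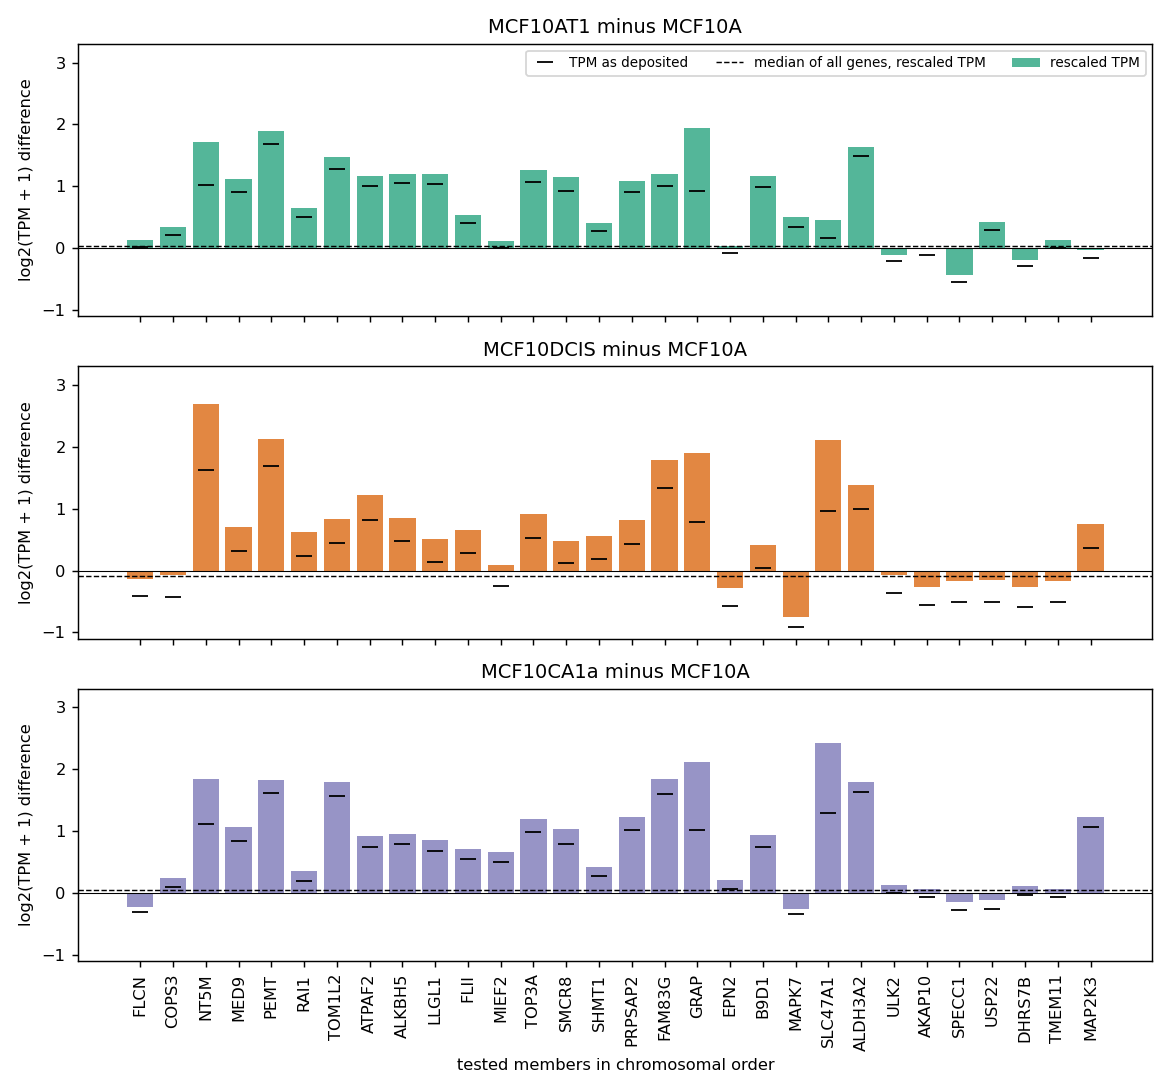
Difference from MCF10A in log2(TPM + 1) for the 30 members compared, in chromosomal order, with bars for rescaled TPM, short black lines for TPM as deposited and a dashed line at the median of all genes. Bars pass 0.5 for 17, 16 and 17 of the 21 members from NT5M to ALDH3A2 in MCF10AT1, MCF10DCIS and MCF10CA1a, and for 0, 1 and 1 of the 7 from ULK2 to MAP2K3. MAPK7 and EPN2, inside the first stretch, fall below 0 in MCF10DCIS at -0.74 and -0.29.

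Of the 6 enzymes and transporters compared, PEMT, ALDH3A2, PRPSAP2 and SLC47A1 were raised in at least 2 derived lines, and SHMT1 and DHRS7B in none. PEMT, which methylates phosphatidylethanolamine to phosphatidylcholine, had 8.45 TPM in MCF10A and 29.5 in MCF10AT1, with 29.4 in MCF10DCIS and 27.8 in MCF10CA1a. As deposited, its differences of 1.69, 1.68 and 1.61 were within 0.1 of each other, and the derived lines held nearly the same level. On rescaled TPM the differences were 1.89, 2.12 and 1.82, with MCF10DCIS highest. ALDH3A2, the fatty aldehyde dehydrogenase, had 39.6 TPM in MCF10A and 113 in MCF10AT1, with 80.2 in MCF10DCIS and 125 in MCF10CA1a. It was the most abundant of the 7 members raised in all derived lines, with differences of 1.49, 1.00 and 1.63. PRPSAP2, a regulatory partner of the phosphoribosyl pyrophosphate synthetases, had 7.55, 15.05, 10.5 and 16.3 TPM in MCF10A, MCF10AT1, MCF10DCIS and MCF10CA1a, and passed 0.5 in MCF10AT1 and MCF10CA1a, and on rescaled TPM also in MCF10DCIS, at 0.82.

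SLC47A1, an exporter of organic cations, was nearly silent in MCF10A at 0.047 TPM and in MCF10AT1 at 0.175 TPM. It reached 1.04 TPM in MCF10DCIS and 1.58 TPM in MCF10CA1a. SHMT1, the cytosolic serine hydroxymethyltransferase, had 26.4, 32.1, 30.3 and 32.0 TPM in MCF10A, MCF10AT1, MCF10DCIS and MCF10CA1a. Its differences of 0.28, 0.19 and 0.27 were all positive and below 0.5, and on rescaled TPM that in MCF10DCIS was 0.56. DHRS7B, a reductase of ether lipid synthesis that lies between ULK2 and MAP2K3, had 12.5, 10.0, 7.99 and 12.2 TPM in the same order, with MCF10A highest.

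Of the mitochondrial proteins, NT5M and ATPAF2 were raised in all 3 derived lines. NT5M, the mitochondrial deoxyribonucleotidase, had 0.333 TPM in MCF10A and 1.70 in MCF10AT1, with 3.11 in MCF10DCIS and 1.87 in MCF10CA1a. It was the only member whose highest level lay in MCF10DCIS on deposited TPM. ATPAF2, an assembly factor of the F1 part of ATP synthase, had 11.8, 24.8, 21.7 and 20.5 TPM in MCF10A, MCF10AT1, MCF10DCIS and MCF10CA1a, which gives differences of 1.00, 0.82 and 0.74. MIEF2, which recruits the fission GTPase DRP1, had 9.10, 9.06, 7.48 and 13.3 TPM, and its difference in MCF10CA1a was 0.497, just short of the threshold, or 0.67 on rescaled TPM. MIEF2 lies well inside the raised stretch, and in MCF10AT1 it stood at the MCF10A level. TMEM11, a mitochondrial membrane protein, and AKAP10, an anchor of protein kinase A, lie between ULK2 and MAP2K3. Their differences ran from -0.55 to -0.00 over the 3 lines, or -0.27 to 0.12 on rescaled TPM.

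Both nucleic acid enzymes were raised. ALKBH5, which removes N6-methyladenosine from RNA, had 26.7 TPM in MCF10A and 56.5 in MCF10AT1, with 37.6 in MCF10DCIS and 47.2 in MCF10CA1a. It passed 0.5 in MCF10AT1 (1.05) and MCF10CA1a (0.80), and had 0.48 in MCF10DCIS, or 0.86 on rescaled TPM. TOP3A, the topoisomerase that resolves recombination intermediates with BLM, had 8.26, 18.5, 12.3 and 17.4 TPM in MCF10A, MCF10AT1, MCF10DCIS and MCF10CA1a. Its differences were 1.07, 0.52 and 0.99.

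Members of transcription and ubiquitin complexes differed among themselves. MED9, a subunit of the middle module of Mediator, had 4.59, 9.45, 5.94 and 9.03 TPM in MCF10A, MCF10AT1, MCF10DCIS and MCF10CA1a, and was raised in MCF10AT1 and MCF10CA1a. RAI1, the dosage-sensitive chromatin regulator of this band, had 20.3, 29.2, 24.1 and 23.4 TPM. As deposited it passed 0.5 in MCF10AT1 at 0.51, with 0.24 in MCF10DCIS and 0.20 in MCF10CA1a. On rescaled TPM it passed in MCF10AT1 at 0.65 and in MCF10DCIS at 0.62, with 0.35 in MCF10CA1a. COPS3, a subunit of the COP9 signalosome, had 31.7, 36.8, 23.3 and 33.96 TPM and was raised in no line. USP22, the deubiquitinase of the SAGA complex, had 50.8, 62.5, 35.2 and 42.4 TPM, and was lowered in MCF10DCIS at -0.52. That USP22 call depends on the scale, since its rescaled difference there was -0.16.

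Among signalling genes, FAM83G, an anchor of casein kinase 1, had 6.11 TPM in MCF10A and 13.3 in MCF10AT1, with 16.9 in MCF10DCIS and 20.6 in MCF10CA1a. Its differences of 1.01, 1.33 and 1.60 followed the order of the lines. MAP2K3, the kinase that activates p38, had 30.8, 27.6, 40.1 and 65.2 TPM in MCF10A, MCF10AT1, MCF10DCIS and MCF10CA1a. It is the last member of the stretch and was raised as deposited in MCF10CA1a alone, at 1.06, against 0.37 in MCF10DCIS and -0.15 in MCF10AT1. On rescaled TPM its MCF10DCIS difference was 0.75. MAPK7, the kinase ERK5, had 4.99, 6.58, 2.19 and 3.71 TPM and was lowered in MCF10DCIS at -0.91, or -0.74 on rescaled TPM. It was the only member from NT5M to ALDH3A2 lowered on both scales in any line. GRAP, an adaptor of the GRB2 family, was listed at 0 in MCF10A and had 0.890, 0.719 and 1.03 TPM in MCF10AT1, MCF10DCIS and MCF10CA1a. GRAP has a near-identical copy, GRAPL, close by, so its values are uncertain.

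Polarity, cytoskeletal and trafficking genes held the member of highest level. FLII, an actin-remodelling protein of the gelsolin family, had 96.9 TPM in MCF10A and 129 in MCF10AT1, with 119 in MCF10DCIS and 143 in MCF10CA1a, with 0.41, 0.29 and 0.56 as differences. LLGL1, a scaffold of basolateral polarity, had 11.9, 25.5, 13.3 and 19.7 TPM in MCF10A, MCF10AT1, MCF10DCIS and MCF10CA1a, and TOM1L2, an endosomal adaptor, had 7.43, 19.4, 10.4 and 24.1 TPM. Both were raised in MCF10AT1 and MCF10CA1a, and on rescaled TPM in MCF10DCIS too, at 0.51 for LLGL1 and 0.83 for TOM1L2. EPN2, an epsin of clathrin-coated pits, had 8.08, 7.55, 5.07 and 8.49 TPM and was raised nowhere, although it lies inside the raised stretch. SPECC1, a coiled-coil cytoskeletal protein, had 18.5, 12.4, 12.7 and 15.1 TPM and was the member lowest on average against MCF10A, with -0.54, -0.51 and -0.27, or -0.44, -0.16 and -0.14 on rescaled TPM, where it was lowered in none.

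Of the nutrient-sensing genes, SMCR8, the partner of C9orf72, had 3.34, 7.19, 3.71 and 6.50 TPM in MCF10A, MCF10AT1, MCF10DCIS and MCF10CA1a, with 0.92, 0.12 and 0.79 as differences. FLCN, which acts on the Rag GTPases at the lysosome, had 4.23, 4.28, 2.95 and 3.22 TPM, and the autophagy kinase ULK2 had 4.38, 3.66, 3.20 and 4.37 TPM. Neither was raised in any line. B9D1, a protein of the ciliary transition zone, had 7.24, 15.3, 7.51 and 12.8 TPM and was raised in MCF10AT1 and MCF10CA1a.

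The 7 members below 1 TPM in every line were RASD1, DRC3, MYO15A, SLC5A10, MFAP4, RNF112 and NATD1. NATD1 ranged from 0.341 TPM in MCF10DCIS to 0.620 in MCF10AT1, and DRC3, a protein of the ciliary dynein regulatory complex, from 0.176 in MCF10DCIS to 0.437 in MCF10AT1. RASD1, MYO15A, RNF112, SLC5A10 and MFAP4 were all below 0.1 TPM in each line. NT5M, GRAP and SLC47A1 entered the comparison only through the derived lines, so they had to differ. Without them, 27 members remain, of which 13 were raised in MCF10AT1, 5 in MCF10DCIS and 14 in MCF10CA1a. Of the 12045 genes with at least 1 TPM in MCF10A, 7.24%, 5.89% and 11.8% were raised in the same lines.

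**Figure D3:**
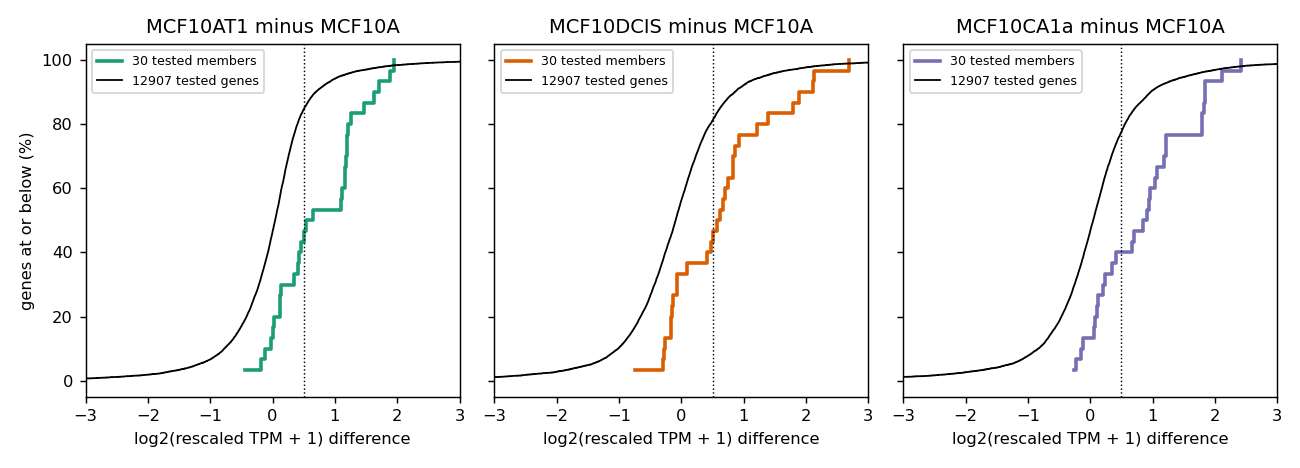
Cumulative share of genes (vertical axis, percent) against the difference from MCF10A in log2(rescaled TPM + 1), with the 30 members as the coloured line and all 12907 genes on that scale as the black line. The members' line lies to the right of the black one for most of its length, and meets the dotted line at 0.5 with 17, 17 and 18 members to its right in MCF10AT1, MCF10DCIS and MCF10CA1a.

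Several members overlap a neighbour on the opposite strand, and the strand setting of the counting is not given in the sources used here, so reads of such pairs may not have been told apart. DRC3 overlaps ATPAF2 by 39481 bases, SLC5A10 overlaps FAM83G by 36016 bases, and LLGL1 and FLII share 40 bases. In each of the first 2 pairs one gene stayed below 1 TPM in every line while its partner was raised in all derived lines. TOP3A and SMCR8, whose promoter windows are shown above, start 303 bases apart in GENCODE and point away from each other. Their differences were 1.07 and 0.92 in MCF10AT1, 0.52 and 0.12 in MCF10DCIS, and 0.99 and 0.79 in MCF10CA1a. B9D1 and MAPK7 start 472 bases apart, overlap by 473 bases and moved differently: 0.98 and 0.34 in MCF10AT1, 0.05 and -0.91 in MCF10DCIS, and 0.74 and -0.35 in MCF10CA1a. ATPAF2 and GID4, with starts 83 bases apart, were both raised in all derived lines.

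Another 15 genes at or above 1 TPM lie among the members. Of these, 8 were raised in MCF10AT1, 6 in MCF10DCIS and 8 in MCF10CA1a, where 9.76%, 8.6% and 15.3% of all genes were, and 0, 1 and 3 were lowered. The lowered ones were AC007952.4 in MCF10DCIS (-0.74) and MCF10CA1a (-0.67), and RPL13P12 and SNORD3A in MCF10CA1a (-0.52 and -0.68). GID4, DRG2 and CCDC144B were raised in all 3 lines, DRG2 with 13.4 TPM in MCF10A and 33.4 in MCF10AT1, with 25.5 in MCF10DCIS and 25.9 in MCF10CA1a. SREBF1, the sterol-regulated transcription factor beside RAI1, had differences of 0.40, 0.27 and 0.21 and was raised in none as deposited. On rescaled TPM it had 0.53 in MCF10AT1 and 0.65 in MCF10DCIS, past 0.5 in both, and 0.36 in MCF10CA1a. ALDH3A1, an aldehyde dehydrogenase that lies between ALDH3A2 and ULK2, differed most: 0.818 TPM in MCF10A and 40.7 in MCF10AT1, with 13.6 in MCF10DCIS and 40.0 in MCF10CA1a. It entered the comparison only through the derived lines.

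Just outside the FLCN end, PLD6 was raised in all 3 derived lines, with differences of 1.00, 0.85 and 1.55, while FLCN just inside was raised in none. PLD6 had 0.745 TPM in MCF10A and entered the comparison only through the derived lines. MPRIP, which overlaps FLCN on the other strand, had 121 TPM in MCF10A and 94.2 in MCF10AT1, with 198 in MCF10DCIS and 269 in MCF10CA1a. The last 2 Mb before FLCN hold 24 genes compared, a window chosen after the values were seen. Of these, 8 were raised in MCF10AT1, 12 in MCF10DCIS and 16 in MCF10CA1a, where 9.76%, 8.6% and 15.3% of all genes were, and the medians were 0.08, 0.42 and 0.68. Of the 13 with at least 1 TPM in MCF10A, 2, 3 and 6 were raised, where 7.24%, 5.89% and 11.8% of all such genes were, and the medians were -0.16, -0.27 and 0.35. Farther out on that arm, 153 genes had medians of 0.04, -0.36 and -0.09. Raised genes were thus found beyond FLCN in all 3 derived lines, and FLCN and COPS3 stood as unraised genes between PLD6 and NT5M, which were raised in each. NT5M, like PLD6, entered the comparison only through the derived lines, so neither gene can show where the rise begins. At the other end, just inside, MAP2K3 was raised as deposited in MCF10CA1a alone. The next gene compared, WSB1, lies 5.98 Mb further on and had differences of -0.04, -0.78 and -0.47. The 548 genes of chromosome 17 after the stretch had medians of -0.01, -0.07 and 0.15.

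**Figure D4:**
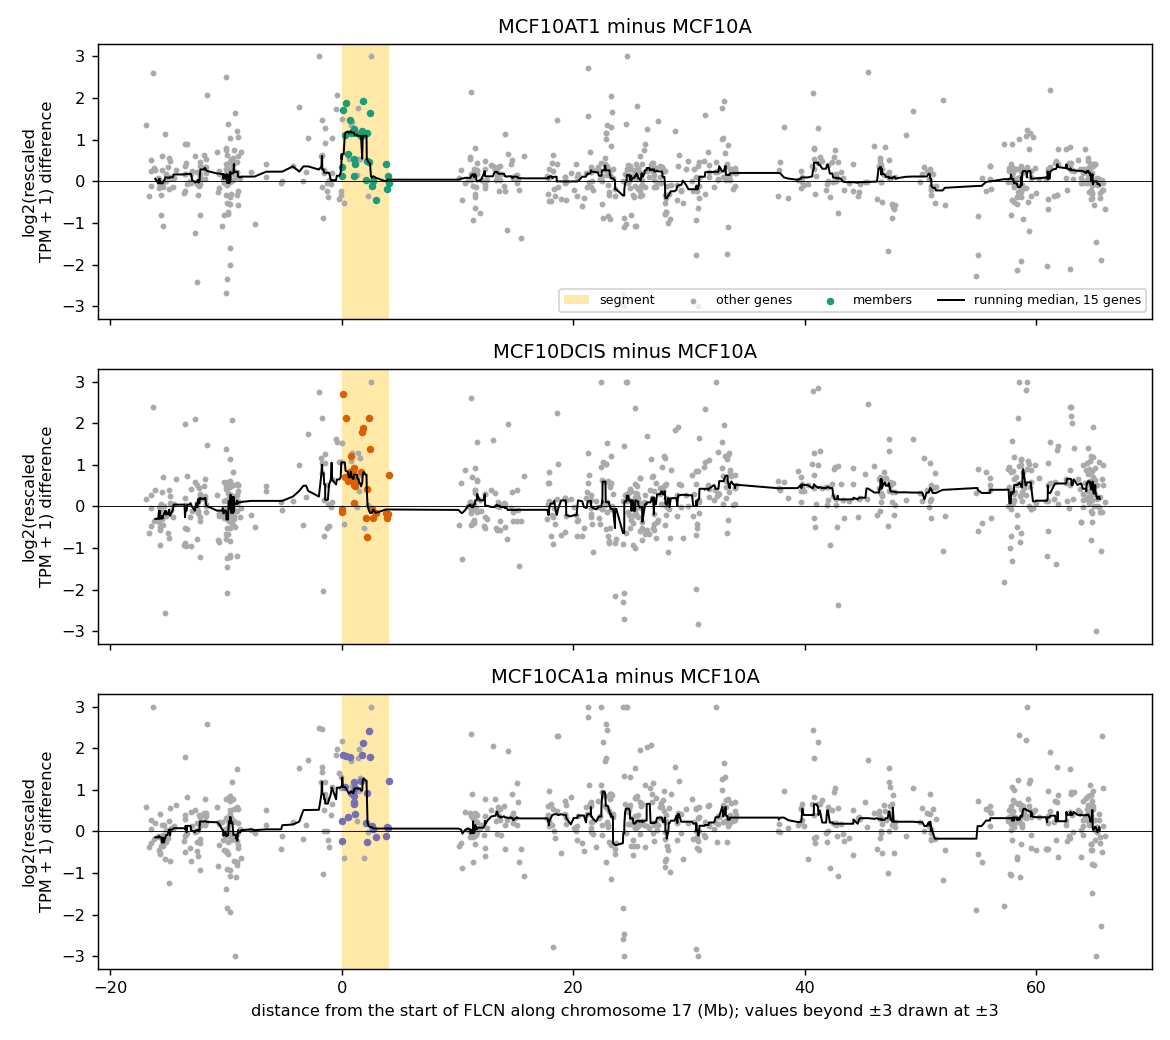
Difference from MCF10A in log2(rescaled TPM + 1) along chromosome 17 against distance from the start of FLCN in Mb, with coloured points for members, grey points for other genes, a black line for the running median of 15 genes and the stretch shaded. The running median reached 1.20 within the shading in MCF10AT1 and 1.30 in MCF10CA1a, and returned towards 0 before its end, after ALDH3A2. MCF10DCIS rose least: the 21 members compared from NT5M to ALDH3A2 had a median of 0.82 there, against 1.17 in MCF10AT1 and 1.03 in MCF10CA1a.

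Between derived lines, the members' median was -0.43 in MCF10DCIS against MCF10AT1, where the median of all genes was -0.30, and 0.02 in MCF10CA1a against MCF10AT1, where it was 0.00. In MCF10CA1a against MCF10DCIS it was 0.45, where all genes stood at 0.30. On rescaled TPM the members' medians were -0.26, 0.04 and 0.29, and those of all genes -0.13, 0.01 and 0.14. MCF10DCIS was the lowest of the derived lines for 22 of 30 members as deposited and for 18 on rescaled TPM. The share of all genes lowest in MCF10DCIS was not computed, so this count cannot be read as a trait of the members. In MCF10DCIS against MCF10AT1, 14 of 30 members lay above the median of all genes on either scale. In MCF10CA1a against MCF10DCIS, 19 of 30 did. MCF10AT1 and MCF10CA1a had like levels for most members, with exceptions. MAP2K3 and SLC47A1 were 1.21 and 1.13 higher in MCF10CA1a than in MCF10AT1, and MAPK7 was lower by 0.69, at -0.69.

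Since the members belong to complexes and pathways whose other genes lie elsewhere, 19 lists of 125 such partner genes were set beside them, of which 120 were compared. Partners were raised in 4 cases in MCF10AT1 (3.33%), 4 in MCF10DCIS (3.33%) and 9 in MCF10CA1a (7.5%), below the 9.76%, 8.6% and 15.3% of all genes. They were lowered in 13, 56 and 24 cases of 120, where 18.7%, 41.3% and 21.1% of all genes were. Their medians were -0.05, -0.40 and -0.13, where those of all genes were -0.07, -0.38 and -0.07. For 21 pairs of a member and its list, the member's rescaled difference lay above that of every partner in all 3 derived lines in 8. Since the members were chosen as raised, this count is a description. One of the 8 is GRAP, which is listed at 0 in MCF10A and has 1 partner compared. ALKBH5 lay above all 10 genes of the RNA methylation list, MED9 above all 8 other middle-module subunits, TOM1L2 above 7 adaptors and PEMT above 5 genes of phosphatidylcholine synthesis. TOP3A lay above its 4 partners, among them RMI2, whose rescaled differences were -0.84, -0.81 and -0.23. RMI2 lies on chromosome 16, whose genes had median rescaled differences of -0.43, -0.62 and -0.53. Other partners lie on chromosome 7, with -0.46, -0.66 and -0.51, and chromosome 8, with -0.47, -0.67 and -0.49. Chromosome 9, which also holds partners, had 0.57, -0.09 and 0.56. Whether the partners' differences follow those of their chromosomes was not tested.

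Some partners moved by themselves. C9orf72, which binds SMCR8, had 1.20 TPM in MCF10A and 2.19 in MCF10AT1, with 1.52 in MCF10DCIS and 4.74 in MCF10CA1a, and was the one gene of its list above SMCR8 in MCF10CA1a. In the polarity list LLGL2, the closest relative of LLGL1, had 59.1, 12.1, 32.3 and 34.5 TPM in MCF10A, MCF10AT1, MCF10DCIS and MCF10CA1a with -2.19, -0.85 and -0.76 as differences. LLGL1 had 1.03, 0.14 and 0.68, so the 2 relatives differed in sign in all 3 derived lines. Of the members from ULK2 to MAP2K3, 4 have a list. USP22 lay above 8, 5 and 4 of 9 SAGA genes in MCF10AT1, MCF10DCIS and MCF10CA1a, and AKAP10 above 3, 2 and 3 of 5. MAP2K3 lay above 6, 6 and 7 of 7 genes of the p38 module, hence above each of them in MCF10CA1a. ULK2 lay above 0, 1 and 2 of 6 genes of its list, hence below each of them in MCF10AT1.

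**Figure D5:**
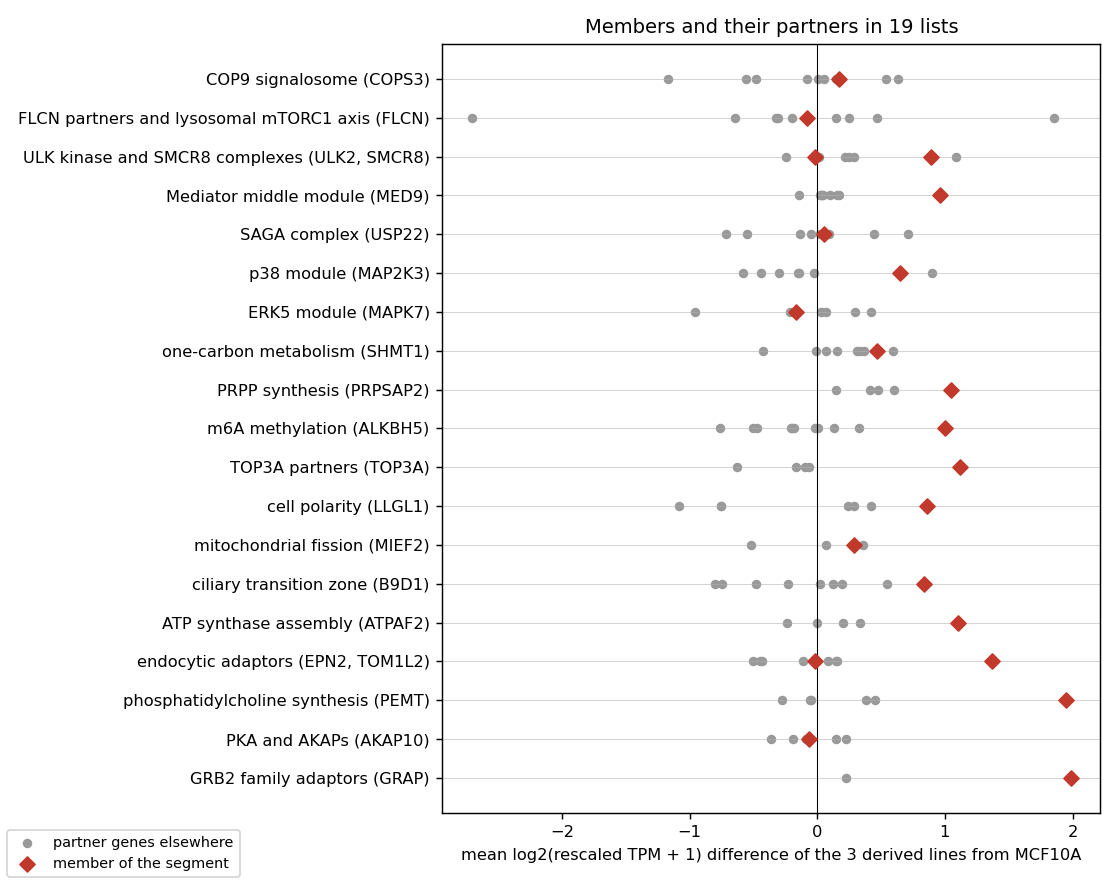
Mean difference of the 3 derived lines from MCF10A in log2(rescaled TPM + 1), with red diamonds for members and grey points for the partner genes of 19 lists, 1 row per list. The diamonds of PEMT, TOM1L2, ALKBH5, TOP3A and MED9 stand right of all their partners, and those of USP22, AKAP10, EPN2 and FLCN stand among them.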

How the data were processed

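RNA from 12 libraries of 4 lines was sequenced. STAR, edgeR and build hg38 are named per the submitters' processing notes. The quantifier, annotation, versions and strand setting were not stated in those notes or the labels. TPM was deposited by the authors as 1 mean column per line, so no test, SD or depth could be had. The members, gene lists and rules were chosen with earlier results of these data known. Differences were computed as log2(TPM + 1), a pseudocount of 1, which understates the change of low genes, over genes with at least 1 TPM in any line. A difference of 0.5 or more counted as raised. Of 59427 symbols, 54426 had a position in GENCODE release 29 (GRCh38, the build hg38 denotes). All 37 members could be named, with neighbours, HRAS and up to 2 partners per list past a difference of 1. The planned omission of single libraries and the replicate block could not be applied to means. Alternatives were a pseudocount of 0.1, other filters, 3 scalings and a larger threshold. The calculation was checked on simulated data. Python 3.11.15, pandas 2.3.3, numpy 2.4.6 and matplotlib 3.10.9 were used.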

Additional observations from a re-analysis of the deposited data

How the results depend on the processing

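No paired analysis was possible because the deposited columns are means per line and carry no replicate numbers; leaving out single libraries could not be run for the same reason. The members' counts and medians stayed above 0 in every comparison with MCF10A, under all alternatives run, but their sizes moved, chiefly in MCF10DCIS. Raised members there numbered 8 as reported, 17 on rescaled TPM, 17 with median-of-ratios scaling and 18 with quantile normalization. The share of all genes raised moved too, at 8.6%, 18.9%, 18.7% and 18.97% in the same order. With a filter of a mean of 5 TPM, 5 members were raised, where 7.095% of all genes were. The median of 0.22 became 0.59, 0.65, 0.62 on the 3 scalings and 0.046 without a filter. It lay 0.599 above the median of all genes as reported. On the 3 scalings it lay 0.684, 0.665 and 0.616 above, and without a filter 0.0617. At a difference of at least 1, 9, 4 and 9 members were raised in MCF10AT1, MCF10DCIS and MCF10CA1a, where 3.39%, 3.56% and 5.97% of all genes were. The MCF10AT1 median of 0.46 became 0.72 with a pseudocount of 0.1, 0.28 without a filter, 0.70 with the filter of 5 TPM, 0.59 on rescaled TPM and 0.60 with quantile normalization. The MCF10CA1a median of 0.71 became 0.27 without a filter and 0.89 on rescaled TPM. Between derived lines, MCF10DCIS against MCF10AT1 went to -0.27 without a filter, -0.26 rescaled, -0.13 with median-of-ratios and -0.13 with quantile normalization, and MCF10CA1a against MCF10DCIS to 0.32, 0.29, 0.13 and 0.12. The median near 0 of MCF10CA1a against MCF10AT1 (0.02) changed sign to -0.0056 without a filter, -0.032 with the filter of 5 TPM and -0.028 with quantile normalization. Requiring 1 TPM in MCF10A, added after the data were seen, moved no count by over 1.5 times except that in MCF10DCIS, and gave a MCF10CA1a median of 0.56. That MCF10DCIS count was 5 of 27, where 5.89% of all genes passing this filter were raised. The cause of these moves was not tested. With means alone, small differences cannot be set against library error.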
